A study of Rattus norvegicus with 4 samples.

Results

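The 6 Cdk inhibitor genes and 3 D cyclin genes were followed in rat lens capsules after extracapsular lens extraction (ECLE), the operation that removes the content of the lens and leaves the capsule with its lens epithelial cells (LECs). The members are the probe sets whose single gene symbol in the platform annotation is *Cdkn1a*, *Cdkn1b*, *Cdkn1c*, *Cdkn2a*, *Cdkn2b*, *Cdkn2c*, *Ccnd1*, *Ccnd2* or *Ccnd3*. All 9 genes had a probe set, 14 in all, out of 14217 genes and 20826 probe sets with a single symbol. Female albino Sprague-Dawley rats had ECLE in both eyes at the age of 7 weeks, and no sample came from an eye without surgery. Capsules taken right after surgery (day 0, rats aged 7 weeks) were measured on 1 array. Capsules taken 7 days after it (1 W, 8 weeks of age) were measured on 2 arrays of separate biological replicates, and those taken 14 days after it (2 W, 9 weeks of age) on 1 array. The study's methods name more samples per time point than there are arrays here, and the sources used here do not tell how many animals or eyes went onto each. Time after surgery and age move together in this design and cannot be told apart.

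D cyclins bind and switch on the kinases Cdk4 and Cdk6, which phosphorylate the retinoblastoma protein (Rb) and so release E2F transcription factors that drive cells from G1 into S phase. Inhibitors of the INK4 family (*Cdkn2a*, *Cdkn2b*, *Cdkn2c*) bind Cdk4 and Cdk6 themselves, while those of the Cip/Kip family (*Cdkn1a*, *Cdkn1b*, *Cdkn1c*) bind complexes of cyclins and kinases, above all those of Cdk2. In the lens, the epithelium holds the dividing cells, and cells that become fibers leave the cell cycle with p27 (*Cdkn1b*) and p57 (*Cdkn1c*) present. The D cyclin genes answer to growth factor signals, and p15 (*Cdkn2b*) and p21 (*Cdkn1a*) are known targets of TGFβ signaling in epithelial cells.

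The promoters of 4 inhibitor genes are shown because these are the inhibitors whose values stood apart from day 0 in the results that follow, 3 of them higher and *Cdkn2c* lower. Each sequence is the 250 bases before the start site in RefSeq (rat build GRCr8), which held a promoter for 6 of the 9 members. *Cdkn2a* (chr5:109107957-109108206, minus strand) and *Cdkn2b* (chr5:109134856-109135105, minus strand) lie next to each other, with starts 26899 bases apart. *Cdkn2c* is at chr5:129644892-129645141 on the minus strand and *Cdkn1a* at chr20:7150682-7150931 on the plus strand. Capitals mark matches on either strand to the GC box (GGGCGG), the cyclic AMP response element (TGACGTCA) or the decamer bound by p53.
Cdkn2a: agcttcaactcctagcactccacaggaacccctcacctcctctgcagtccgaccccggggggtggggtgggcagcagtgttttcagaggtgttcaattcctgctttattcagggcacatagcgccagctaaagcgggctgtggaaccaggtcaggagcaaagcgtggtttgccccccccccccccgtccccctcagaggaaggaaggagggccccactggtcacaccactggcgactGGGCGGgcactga
Cdkn2b: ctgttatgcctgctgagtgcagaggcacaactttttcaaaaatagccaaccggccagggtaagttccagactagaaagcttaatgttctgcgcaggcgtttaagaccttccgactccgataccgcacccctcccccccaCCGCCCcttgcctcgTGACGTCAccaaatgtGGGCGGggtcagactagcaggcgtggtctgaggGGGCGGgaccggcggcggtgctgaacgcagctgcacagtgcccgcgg
Cdkn2c: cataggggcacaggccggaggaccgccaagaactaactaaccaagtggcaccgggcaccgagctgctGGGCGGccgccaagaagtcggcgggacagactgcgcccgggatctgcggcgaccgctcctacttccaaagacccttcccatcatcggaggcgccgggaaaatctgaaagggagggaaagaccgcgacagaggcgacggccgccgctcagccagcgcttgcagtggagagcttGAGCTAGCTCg
Cdkn1a: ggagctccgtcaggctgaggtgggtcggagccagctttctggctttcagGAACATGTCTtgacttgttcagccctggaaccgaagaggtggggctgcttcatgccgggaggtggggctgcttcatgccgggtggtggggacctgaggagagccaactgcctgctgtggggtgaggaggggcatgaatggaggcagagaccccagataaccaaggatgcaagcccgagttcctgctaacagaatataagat

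The *Cdkn2b* window held 3 GC boxes and 1 cyclic AMP response element, and the *Cdkn2a* window held 1 GC box. The *Cdkn2a* window was not assigned to either product of that gene, p16 or p19Arf. The *Cdkn2c* window held 1 GC box and 1 p53 decamer, and the *Cdkn1a* window 1 p53 decamer and no GC box. Of 33469 rat promoter windows of this length, 30.5% held a GC box, 1.59% the cyclic AMP response element and 6.64% a p53 decamer. None of the 4 windows held the E box CACGTG, the AP-1 site TGACTCA, the E2F sites TTTGGCGC or TTTCGCGC, the CCAAT box or the TATAAA box. These are matches of letters, and binding was not measured.

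Values are given as the deposited intensity, and ratios to day 0 were taken on the log2 scale after each array was divided by its mean intensity. This scaling was needed because the array medians spanned 0.84 log2 units, from 57.0 at day 0 to 31.9 at 2 W. A filter at the 40th percentile of mean level kept 18625 probe sets, whose median log2 ratio after scaling was -0.08 at 1 W. At 2 W that median was -0.26, so a single ratio has to be set beside these shifts. These probe sets entered the limma fit, where the spread is known only between the 1 W replicates and is taken to hold for the single arrays of day 0 and 2 W as well. Every ratio shares the same day 0 array. The actin control (3' end over 5' end), 1 reading of RNA quality, gave 2.32 at day 0, 1.89 and 1.90 in the 1 W replicates and 1.61 at 2 W. The same ratio for the GAPDH control was 1.16, 1.12, 1.18 and 1.10 in that order, without such a course. The part of RNA quality in the results was not tested. In whole capsules, a change in the number of cells of a type and a change in RNA per cell cannot be told apart.

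The INK4 inhibitors *Cdkn2a* and *Cdkn2b* lay near the bottom of the intensity range at day 0 and around its middle after ECLE, while *Cdkn2c* was lower at 2 W. *Cdkn2a* encodes p16 and, from another reading frame, p19Arf, and its probe set was not assigned to either here. Its intensity was 0.823 at day 0, 64.7 and 91.7 for replicates 1 and 2 of 1 W, and 55.1 on the 2 W array. These values lay at the 1.99, 56.6, 62.8 and 61.1 percentiles of the arrays in the same order. All 3 arrays after ECLE were far above day 0, and they lay close to each other. The log2 ratios to day 0 were 6.47 and 7.02 for the 1 W replicates and 6.63 for 2 W. The mean level of this probe set was below the 40th percentile, so it was not among those tested. When limma was fitted to all 31042 probe sets without a filter, its adjusted p was 0.107 at 1 W and 0.0718 at 2 W.

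*Cdkn2b*, the neighbor of *Cdkn2a*, encodes p15. Its intensity was 4.54 at day 0, 95.5 and 89.6 for the 1 W replicates, and 62.8 on the 2 W array. The arrays after ECLE were again all above day 0, and the 1 W replicates were 0.04 log2 units apart. The log2 ratio was 4.54 at 1 W (standard error 0.34, 95% interval 3.61 to 5.48, adjusted p = 0.0828 from limma), a ratio of 23.3. At 2 W it was 4.36 (standard error 0.39, 95% interval 3.27 to 5.44, adjusted p = 0.0553), a ratio of 20.5. *Cdkn2b* passed the filter on mean level through the arrays after ECLE (its day 0 value lay at the 12.0 percentile), so a difference from day 0 was built into its entry to the test, and these p-values are a description.

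The day 0 intensities of both genes were lower than the 20th percentile of all scaled values, 8.58, where it is not known whether a probe set is above background. With all lower values raised to that level, *Cdkn2a* was 8.71-fold above day 0 at 1 W and 8.06-fold at 2 W. *Cdkn2b* was then 10.5-fold and 9.19-fold above day 0. The sign of both ratios was the same with and without this floor, and their size rests on dim day 0 values.

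*Cdkn2c*, which encodes p18, lay on the other side of day 0. The intensity of its brighter probe set was 349 at day 0, 231 and 226 on the 1 W arrays, and 107 on the 2 W array. The 2 arrays at 1 W lay below day 0 and agreed within 0.02 log2 units, and the 2 W array was the lowest. The log2 ratio was -0.42 at 1 W (standard error 0.17, adjusted p = 0.304) and -1.14 at 2 W (standard error 0.19, 95% interval -1.67 to -0.61, adjusted p = 0.0664). A dimmer probe set, of a kind in which some probes can match other transcripts, had log2 ratios of -0.23, 0.01 and 0.21 on the 3 arrays after ECLE and was not lower at 2 W. *Cdkn2d*, the remaining INK4 gene, counted with the G1 kinases, had log2 ratios of 0.36 and 0.12 for the 1 W replicates and 0.26 for 2 W and is named here after its values were seen.

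**Figure D1:**
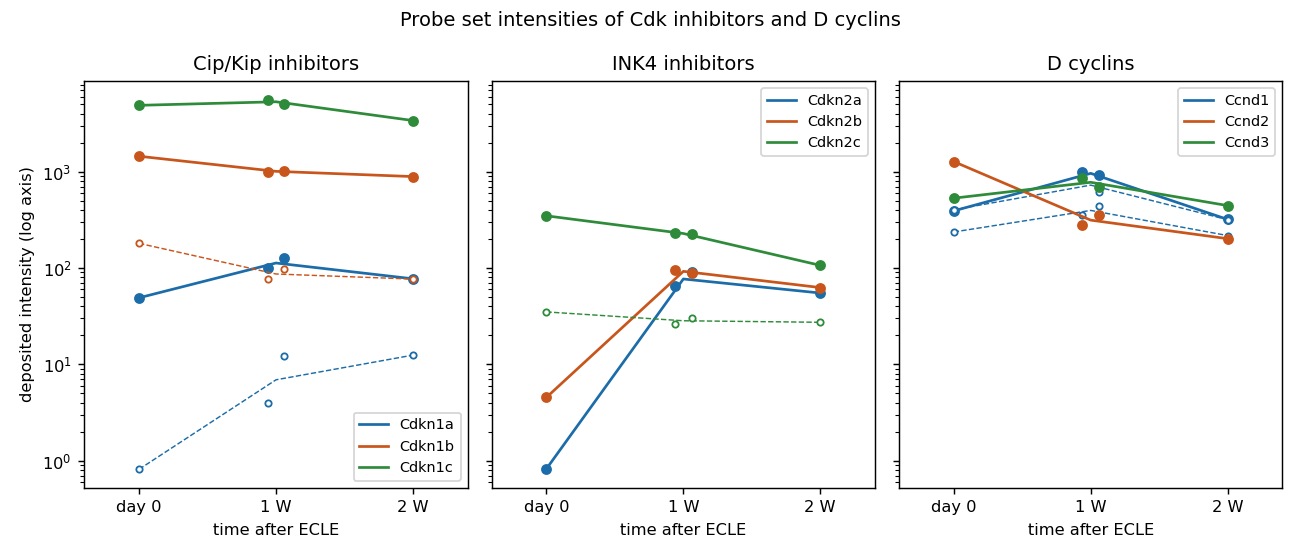
Deposited intensity (vertical, log axis) of the 14 probe sets against the time after surgery (horizontal), by family. Each point is 1 array, filled points and solid lines are the brightest probe set of a gene, open points and dashed lines its other probe sets, and lines pass through the geometric mean of the 2 arrays at 1 W. *Cdkn2a* and *Cdkn2b* start at the bottom of the scale (0.823 and 4.54 at day 0), *Ccnd2* is highest at day 0 (1276), and the array median itself is lower at 2 W (31.9) than at day 0 (57.0).

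Among the Cip/Kip inhibitors, *Cdkn1a* was higher after ECLE and *Cdkn1b* and *Cdkn1c* stayed nearer to day 0. *Cdkn1a* encodes p21, the inhibitor induced by p53. The intensity of its brighter probe set was 49.1 at day 0, 101 and 126 on the 1 W arrays, and 77.4 on the 2 W array. Relative to day 0 it was 2.30-fold and 2.99-fold higher on the 2 arrays at 1 W and 2.33-fold higher at 2 W. All 3 arrays lay above day 0. The log2 ratio was 1.39 at 1 W (standard error 0.28, 95% interval 0.62 to 2.16, adjusted p = 0.161) and 1.22 at 2 W (standard error 0.32, 95% interval 0.33 to 2.11, adjusted p = 0.104). Of the settings compared, it passed limma at 2 W only with the arrays divided by their medians (adjusted p = 0.0398). There, 8.76% of all probe sets tested were called. Its second probe set was very dim, with 0.814 at day 0, 3.94 and 12.1 on the 1 W arrays, and 12.5 on the 2 W array. It was also above day 0 on all 3 arrays, but the replicates at 1 W differed by 1.68 log2 units and the low values give its ratios little weight.

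*Cdkn1b*, which encodes p27, measured 1450.4 in intensity at day 0, 998 and 1023 on the 1 W arrays, and 892 on the 2 W array by its brighter probe set. Its log2 ratio was -0.33 at 1 W (standard error 0.13, 95% interval -0.68 to 0.02) and -0.13 at 2 W (standard error 0.15, 95% interval -0.54 to 0.27), with adjusted p = 0.296 and 0.569. The dimmer probe set was lower in the same direction, with log2 ratios of -1.08 and -0.65 for the 1 W replicates and -0.67 for 2 W. The 2 W direction of the brighter probe set turned with the scaling, to 0.14 with median scaling and 0.18 with scaling by the 75th percentile.

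*Cdkn1c* encodes p57, and its single probe set lay at the 99.5 percentile of the day 0 array. Its intensity was 4900 at day 0, 5629 and 5055 on the 1 W arrays, and 3405 on the 2 W array. After scaling these are log2 ratios of 0.37 and 0.26 for the 1 W replicates and 0.04 for 2 W, with 95% intervals of -0.0046 to 0.64 for the mean at 1 W and -0.33 to 0.41 at 2 W (adjusted p = 0.283 and 0.857). The sign at 2 W was negative with quantile normalization (-0.27) and with the values as deposited (-0.53).

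The D cyclins split, with *Ccnd2* lower and *Ccnd1* and *Ccnd3* higher than day 0 at 1 W. *Ccnd2* encodes cyclin D2, and the intensity of its probe set was 1276 at day 0, 277 and 358 on the 1 W arrays, and 202 on the 2 W array. Relative to day 0 this is 0.244-fold and 0.326-fold on the 2 arrays at 1 W and 0.234-fold at 2 W. All 3 arrays after ECLE were below 0.5-fold. The log2 ratio was -1.83 at 1 W (standard error 0.23, 95% interval -2.46 to -1.20, adjusted p = 0.115) and -2.09 at 2 W (standard error 0.27, 95% interval -2.82 to -1.36, adjusted p = 0.0577). With median scaling it passed limma at both times (adjusted p = 0.0151 and 0.0129), where 2.18% and 8.76% of all probe sets tested were called. It also passed with the values as deposited, but not with scaling by the 75th percentile or quantile normalization.

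*Ccnd1* encodes cyclin D1 and was measured by 3 probe sets that agreed in direction. The brightest measured 393 in intensity at day 0, 1005 and 924 on the 1 W arrays, and 320.0 on the 2 W array. The 2 arrays at 1 W lay together above day 0, and the 2 W array was back near it. The log2 ratio at 1 W was 1.49 (standard error 0.14, 95% interval 1.11 to 1.86, adjusted p = 0.0924), a ratio of 2.81. At 2 W it was 0.27 (standard error 0.16, 95% interval -0.16 to 0.71, adjusted p = 0.311). The next probe set gave log2 ratios of 1.26 and 0.82 for the 1 W replicates and 0.23 for 2 W, and the third had 0.77 and 1.11 at 1 W and 0.44 at 2 W. At 1 W the brightest probe set passed limma with median scaling (adjusted p = 0.0131), where 2.18% of all probe sets tested were called. It also passed with the values as deposited, but not with scaling by the 75th percentile or quantile normalization. At 2 W its sign was negative with the values as deposited (-0.29).

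*Ccnd3*, which encodes cyclin D3, was also highest at 1 W relative to day 0, with a smaller ratio there than *Ccnd1*. Its intensity was 532 at day 0, 870 and 696 on the 1 W arrays, and 446 on the 2 W array. The log2 ratio was 0.74 at 1 W (standard error 0.18, 95% interval 0.26 to 1.22, adjusted p = 0.19) and 0.31 at 2 W (standard error 0.20, 95% interval -0.25 to 0.87, adjusted p = 0.357). With the values as deposited the 2 W value was -0.26.

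**Figure D2:**
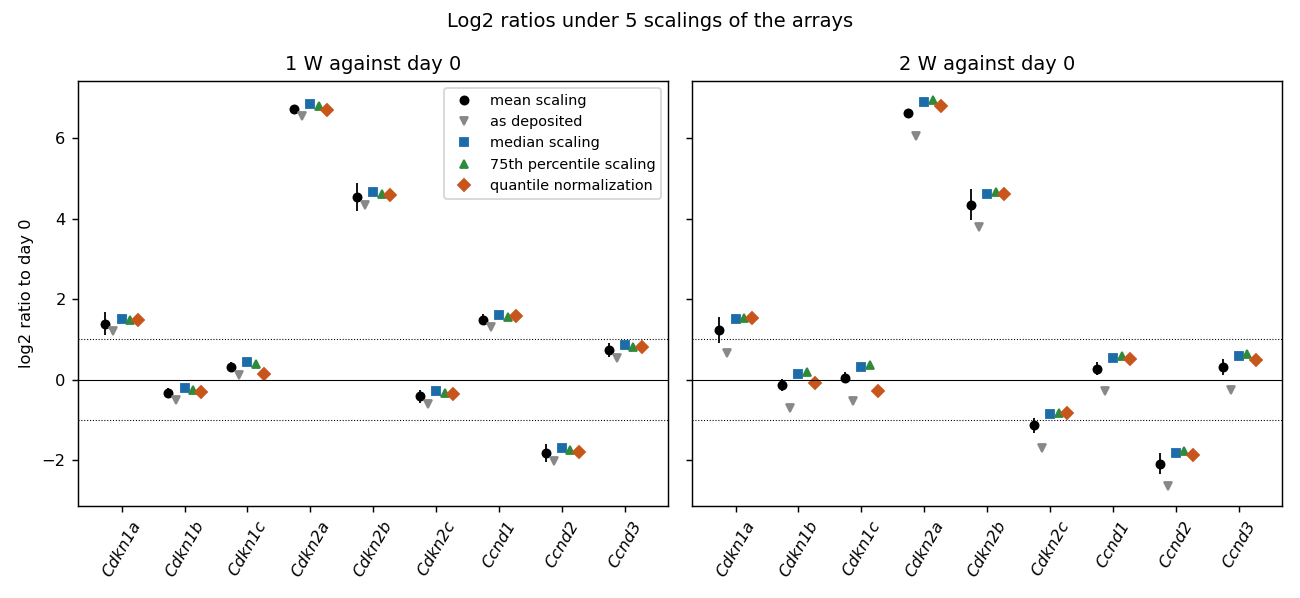
Log2 ratio to day 0 (vertical) of the brightest probe set of each member at 1 W (left, mean of 2 arrays) and 2 W (right, 1 array) under 5 scalings of the arrays. Bars are the limma standard error under mean scaling, *Cdkn2a* was not tested and has none, and dotted lines mark 2.0-fold and 0.5-fold. *Cdkn2a*, *Cdkn2b* and *Cdkn1a* lie above 0 and *Cdkn2c* and *Ccnd2* below it in all 5, while *Cdkn1b*, *Cdkn1c*, *Ccnd1* and *Ccnd3* cross 0 at 2 W.

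No member passed limma over all probe sets in any of the 3 comparisons, where 9 of 18625 probe sets (0.0483%) were called for 1 W, 9 (0.0483%) for 2 W and 0% between 2 W and 1 W. Of the 14 probe sets of the members, 12 passed the filter and were tested, all but that of *Cdkn2a* and the dimmer one of *Cdkn1a*. At an unadjusted p under 0.05, 6 of the 12 were higher at 1 W against 8.21% of all probe sets tested, and 2 were lower against 9.66%. The 6 were those of *Ccnd1* (3), *Ccnd3*, *Cdkn1a* and *Cdkn2b*, the last with the limit on its filtering given above, and the 2 were those of *Ccnd2* and the dimmer one of *Cdkn1b*. For 2 W, 2 were higher (*Cdkn2b* and *Cdkn1a*) against 9.01%, and 2 were lower (*Ccnd2* and *Cdkn2c*) against 21.9%. By the fold rule of the methods, 4 of the 14 probe sets exceeded 2.0-fold on each array after ECLE, those of *Cdkn2a*, *Cdkn2b* and both of *Cdkn1a*, against 4.32% of all 31042 probe sets. These were 3 of the 9 genes, against 4.28% of all genes. All but the brighter one of *Cdkn1a* had day 0 values below the floor used above. With the floor 3 probe sets were left, and the share over all probe sets was not counted for it. The probe set of *Ccnd2* was the 1 below 0.5-fold on each array, against 3.63%.

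Between 1 W and 2 W, *Ccnd1* was the member with the clearest difference. Its brightest probe set was 0.43-fold at 2 W relative to 1 W, with a log2 difference of -1.22 (standard error 0.14, 95% interval -1.59 to -0.84, adjusted p = 0.139 from limma). This adjusted p was also the lowest reached by any of the members in that comparison. The median difference of all probe sets above the filter was -0.20. The other *Ccnd1* probe sets differed by -0.82 and -0.49. *Cdkn2c* differed by -0.73 (95% interval -1.19 to -0.27, adjusted p = 0.156). For *Cdkn2b* the difference was -0.19 (95% interval -1.12 to 0.75), for *Cdkn1a* -0.17 (95% interval -0.94 to 0.60) and for *Ccnd2* -0.27 (95% interval -0.90 to 0.37), intervals that hold changes of either sign. At an unadjusted p under 0.05, 3 member probe sets were lower at 2 W than at 1 W, 2 of *Ccnd1* and 1 of *Cdkn2c*, against 16.4% of those tested, and 0 were higher against 5.5%.

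Differences between 2 members on the same array do not depend on how the array was scaled by a constant, and they compare changes rather than levels. Since day 0, *Ccnd2* minus *Ccnd1* shifted by -3.56 and -3.07 log2 units in the 1 W replicates and by -2.36 at 2 W. By the brightest probe sets, *Ccnd3* minus *Ccnd1* shifted by -0.65 and -0.85 at 1 W and by 0.04 at 2 W. By these, their ratios to day 0 were further apart at 1 W than at 2 W. The third *Ccnd1* probe set had log2 ratios of 0.77, 1.11 and 0.44, beside 0.88, 0.61 and 0.31 for *Ccnd3*. With that probe set, the order of the 2 genes differed between the 1 W replicates. *Cdkn2b* minus *Cdkn2a* shifted by -1.90, -2.50 and -2.28, and by 0.56, -0.03 and 0.19 with the floor on dim values, so this pair has no settled direction. *Cdkn2c* minus *Cdkn2b* shifted by -4.99, -4.93 and -5.50 on the 3 arrays, and by -3.83, -3.77 and -4.34 with that floor. Within the Cip/Kip family, *Cdkn1b* minus *Cdkn1a* shifted by -1.58, -1.87 and -1.36, and *Cdkn1c* minus *Cdkn1a* by -0.84, -1.32 and -1.18. The shift of *Cdkn1a* against the rest of its family had the same sign on all 3 arrays. No test was run on these differences.

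**Figure D3:**
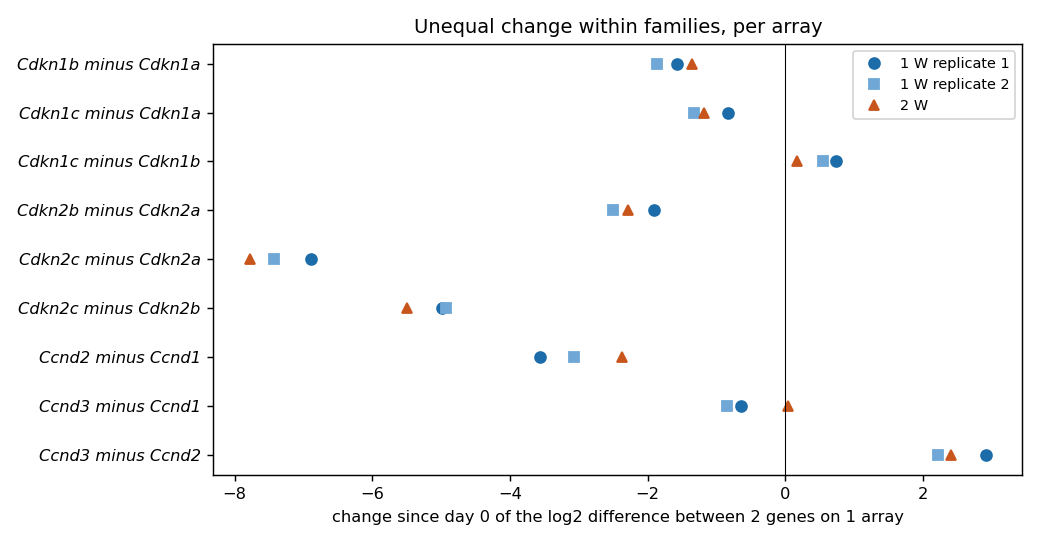
Change since day 0 of the log2 difference between 2 genes of a family on the same array (horizontal), for all pairs within the 3 families (vertical). Each gene is given by its brightest probe set. Each symbol is 1 array, circles and squares for replicates 1 and 2 at 1 W and triangles for 2 W. The pairs of *Cdkn2c* with *Cdkn2a* or *Cdkn2b* lie farthest from 0 and rest on dim day 0 values (-3.83, -3.77 and -4.34 for *Cdkn2b* with the floor), and *Ccnd3* minus *Ccnd1* is the pair whose 2 W point (0.04) reaches the other side of 0 from 1 W.

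The genes whose course was most like that of a member were sought among 10455 genes above the filter, by the Euclidean distance between log2 values centered on their mean over the 4 arrays. For *Cdkn2b*, the nearest were the matrix genes *Fn1* (fibronectin, distance 0.38) and *Col5a2* (a chain of type V collagen, 0.54) and the interferon-induced *Gbp2* (0.61). *Fn1* had log2 ratios of 4.63 and 4.58 for the 1 W replicates and 3.96 for 2 W, beside 4.56, 4.52 and 4.36 for *Cdkn2b*. The *Cdkn2b* values become 3.41, 3.37 and 3.20 with the floor, so its nearest genes depend on a day 0 value not known to be above background. For *Ccnd2* the nearest were *Kynu* (kynureninase, 0.18), *Creb3l1* (a transcription factor anchored in the endoplasmic reticulum, 0.19) and *Stk35* (a kinase, 0.22). For *Cdkn1a* they were *Klhl32* (0.04), *Relt* (a receptor of the tumor necrosis factor family, 0.07) and *Pawr* (0.13). With 4 arrays such a likeness describes these arrays only.

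Genes that act with the members were counted from lists, each gene by its brightest probe set, and no gene of these lists passed limma at either time. Across all 14217 genes, 4.28% exceeded 2.0-fold on every array after ECLE and 2.59% lay under 0.5-fold, and the median log2 ratio came to -0.02 (1 W) and -0.16 (2 W). Of 12 measured kinases and partners of G1, none met either fold rule on each array, and the median log2 ratio came to 0.10 (1 W) and -0.47 (2 W). *Cdk4*, the partner kinase of the D cyclins, measured 1085 in intensity at day 0, 1443 and 1390.0 on the 1 W arrays, and 630.0 on the 2 W array. Its log2 ratio came to 0.58 (1 W) and -0.22 (2 W) (adjusted p = 0.170 and 0.353). *Cdc37*, a chaperone that loads Cdk4, had log2 ratios of 0.67 and 0.77. Of 11 measured genes for the turnover of p27 and D cyclins, again none met a fold rule on each array. The brightest were *Skp1*, a subunit of ubiquitin ligases, with log2 ratios of 0.20 (1 W) and 0.14 (2 W), and *Ddb1*, an adaptor of another ligase, with 0.26 and 0.09.

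Downstream of the members, the replication and division genes were near day 0 at 1 W and mostly lower at 2 W. Of 16 measured S phase genes, none met a fold rule on each array, and their median log2 ratio came to 0.17 (1 W) and -0.64 (2 W). *Pcna*, the clamp of DNA polymerases, measured 1167 in intensity at day 0, 1240.1 and 1103 on the 1 W arrays, and 528 on the 2 W array. *Mcm7*, a subunit of the replication helicase, stood at 0.46 (1 W) and -0.25 (2 W) on the log2 ratio scale. At an unadjusted p under 0.05, 5 of the 16 were lower at 2 W than at day 0, where 21.9% of all probe sets tested were, and 10 were lower than at 1 W, where 16.4% were. The pattern was the same in direction for division. Of 22 measured genes of G2 and M phase, the median log2 ratio came to 0.04 (1 W) and -0.92 (2 W), and of the 19 tested, 10 were lower at 2 W than at day 0 and 12 lower than at 1 W at that threshold. *Mki67*, the proliferation marker, measured 197 in intensity at day 0, 156 and 138 on the 1 W arrays, and 41.7 on the 2 W array (log2 ratio -1.67 at 2 W, adjusted p = 0.0597). *Cdk1*, the kinase of mitosis, stood at 0.47 (1 W) and -0.70 (2 W) on the log2 ratio scale. *Plk1* and *Cenpe*, a kinase and a motor protein of mitosis, were over 2.0-fold on each array, from dim day 0 intensities of 4.38 and 3.25. The medians of both lists at 2 W were negative under each scaling compared, between -0.32 and -1.21 for S phase and between -0.61 and -1.49 for G2 and M phase. At 1 W they were negative only with the values as deposited (-0.02 and -0.15).

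Of 14 measured members of the Rb and E2F families, none met a fold rule on each array, with medians of -0.08 and -0.36. *Tfdp1*, the partner of E2F proteins, stood at 0.04 (1 W) and -0.44 (2 W) on the log2 ratio scale, and *Rbl2*, a relative of Rb, 0.00 and 0.50. Of 16 measured p53 targets other than *Cdkn1a*, only *Plk2*, a stress-induced kinase, was over 2.0-fold on each array, with log2 ratios of 1.58 and 1.89 for the 1 W replicates and 1.17 for 2 W. The list's medians were 0.17 and 0.19. *Ccng1*, cyclin G1, measured 1286 in intensity at day 0, 1123 and 1003 on the 1 W arrays, and 3748 on the 2 W array (log2 ratio 2.11 at 2 W, adjusted p = 0.0553). *Ei24*, a membrane protein of the endoplasmic reticulum, had log2 ratios of -0.39 and -0.51. Of 16 measured regulators of the members' genes, *Lef1*, a transcription factor of Wnt signaling that acts on *Ccnd1*, was the only one over 2.0-fold on each array (log2 ratios of 1.64, 1.60 and 2.00, adjusted p = 0.139 at 1 W and 0.0607 at 2 W). *Ctnnb1*, its partner beta-catenin, had log2 ratios of 0.18 and 0.09, and *Prox1*, a regulator of *Cdkn1c* in fiber cells, 0.07 and 0.28. With the values as deposited, the medians of the G1 list at 1 W (-0.10) and of the p53 targets at 1 W and 2 W (-0.02 and -0.37) were negative, and with median scaling that of the Rb and E2F list at 1 W was 0.04.

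**Figure D4:**
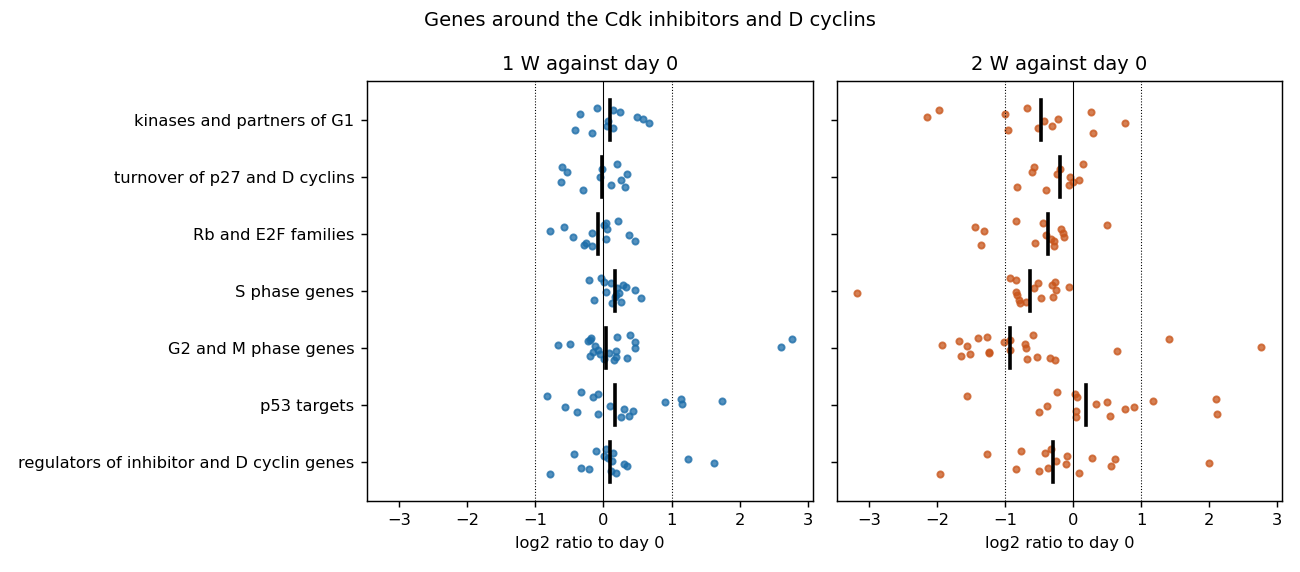
Log2 ratio to day 0 (horizontal) of every measured gene of each list (vertical) at 1 W (left, mean of 2 arrays) and 2 W (right, 1 array), with list medians as black bars and dotted lines at 2.0-fold and 0.5-fold. The bars of S phase genes and of G2 and M phase genes move from 0.17 and 0.04 at 1 W to -0.64 and -0.92 at 2 W.

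Markers of other cells also differed between these arrays. All 12 lens epithelium markers were measured and above the filter, and 1 of them, *Cdh1*, was under 0.5-fold on each array. Their summed scaled intensity was 42961 at day 0, 41793 and 40939 on the 1 W arrays, and 35054 on the 2 W array. At an unadjusted p under 0.05 from limma, 3 of these markers were lower and 1 higher at 1 W, and 6 lower and 1 higher at 2 W. Of all probe sets tested, 9.66% were lower and 8.21% higher at 1 W, and 21.9% lower and 9.01% higher at 2 W. The lens fiber sum was 65564, 74233, 63377 and 126799 in the same order, with none of 16 past a fold rule on each array. This sum does not show that the fiber markers split at 1 W. At the same threshold 4 lay above day 0 there, with log2 ratios of 0.66 (*Crybb1*), 0.56 (*Lim2*), 0.51 (*Bfsp2*) and 0.40 (*Cryaa*). Another 4 lay below it, with -8.47 (*Crygb*), -4.86 (*Crygd*), -3.48 (*Crygc*) and -2.11 (*Bfsp1*). At 2 W, 9 fiber markers lay above day 0 and 0 below it by that threshold, to be read beside the shares over all probe sets given above. Macrophage markers, of which 14 of 17 were over 2.0-fold on each array, summed to 971, 8229, 5558 and 4047. Smooth muscle and fibroblast markers, 6 of 13 over and 1 under, summed to 4507, 12807, 6054 and 11169, and 2 of them, *Tagln* and *Col1a1*, passed limma at both times. Pigment cell markers, 3 of 8 over, summed to 2397, 14091, 5148 and 7809, and photoreceptor markers, 7 of 11 under, to 13103, 1319, 5569 and 1749. Endothelial markers, 1 of 7 over, summed to 469, 629, 399 and 490, with 1 of 5 Schwann cell markers over and 1 under (5253, 5389, 3639 and 5885). Lymphocyte markers, 2 of 8 over and 1 under, summed to 78.8, 122, 121 and 141, and 1 of the 8 was above the filter. The lymphocyte, endothelial and Schwann cell markers over 2.0-fold were all below the filter, so their ratios rest on dim values. No marker was listed at 0. The sums of smooth muscle and fibroblast, pigment cell and photoreceptor markers differed over 2-fold between the 1 W replicates. Between the same arrays the brightest probe sets of the members differed by 0.02 (*Cdkn2c*) to 0.55 (*Cdkn2a*) log2 units in size, with 0.42 for *Ccnd2* and 0.38 for *Cdkn1a*. The part of these cells in the members' values was not tested.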

How the data were processed

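RNA of lens capsules with LECs was labeled by the authors, hybridized to the rat genome array of their methods and scanned. The values they deposited are linear intensities, 1 per probe set and array, made with Affymetrix Expression Console. The summary algorithm and whether per chip normalization is already in the values were not given in the sources that were used here.

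From the deposited intensities, 57 control probe sets were left out and 31042 kept. Each array was divided by its mean, 1 of the divisors that the methods name beside control values, and log2 was taken. The 40th percentile of mean level served as filter, and the 18625 probe sets it kept went into limma 3.58.1 (R 4.3.3). The model held 3 groups and used eBayes with trend, giving 1 residual and 3.12 prior degrees of freedom. The p-values were adjusted over all these probe sets by Benjamini-Hochberg, with a threshold of 0.05. The fit was tested on simulated data. No detection calls were used, and the number of arrays limits the precision.

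Names come from the platform annotation, and 20758 of its 20826 probe sets with a single symbol matched a gene in RefSeq of GRCr8. Where a gene had several probe sets, the brightest stood for it. The text names all members, the 2 brightest or called genes of each pathway list, those past a fold rule on each array, and the 3 genes nearest to 1 member per family, while others are marked as chosen after their values were seen. Of the marker lists only sums, counts, *Cdh1*, the called genes and the lens fiber genes that split at 1 W are given. Those fiber genes were named after their values were seen. The members and lists were chosen with earlier results of these data known. Alternatives were other scalings, a floor, other filters, limma without a trend or robust, 1 probe set a gene, and each 1 W replicate left out. Python 3.11.15 with pandas 2.3.3, numpy 2.4.6 and matplotlib 3.10.9 served for tables and plots.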

Additional observations from a re-analysis of the deposited data

How the results depend on the processing

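No member was called by limma at 1 W, but 3 of the 12 member probe sets tested were with the values as deposited, against 1.34% of all probe sets tested. With median scaling 3 were called, against 2.18% (*Ccnd1*, *Ccnd2* and *Cdkn2b* in both). At 2 W, in place of 0 calls, 5 of the 12 were called as deposited (*Ccnd2*, 2 of *Cdkn1b*, *Cdkn2b*, *Cdkn2c*), where 42.8% of all probe sets tested were. Median scaling gave 3 (*Ccnd2*, *Cdkn1a*, *Cdkn2b*), against 8.76%. Scaling by the 75th percentile gave 1 (*Cdkn2b*), against 2.14%. *Cdkn2b*, with the limit on its filtering given above, is in each of these counts at 1 W and 2 W, so its calls are a description. Between 2 W and 1 W, 6 were called as deposited, all lower, where 23.7% of all probe sets tested were called (193 higher and 4228 lower). Over all probe sets, median scaling gave 260 higher and 146 lower calls at 1 W, then 948 and 683 at 2 W. The values as deposited gave 87 and 163, then 344 and 7630. With quantile normalization, the floor, other filters, limma without a trend or robust, or 1 probe set a gene, 0 members were called in each comparison. At most 0.0725% of all probe sets tested were called in these settings, so the 0 does not set the members apart.

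Signs turned at 2 W for *Cdkn1b* (0.14 with median and 0.18 with 75th percentile scaling), *Cdkn1c* (-0.53 as deposited, -0.27 with quantile normalization), *Ccnd1* (-0.29 as deposited) and *Ccnd3* (-0.26 as deposited). Without 1 W replicate 1 or 2, nothing is left to estimate a spread from and no p can be had, and the counts over 2.0-fold and under 0.5-fold on each array stayed at 4 and 1. The first was 3 with the values as deposited and 3 with the floor. No paired analysis was possible because only the 1 W group has more than 1 replicate. On the 1 W arrays alone, an alternative chosen after seeing the data, 5 member probe sets were over 2.0-fold and 1 under 0.5-fold. The share over all probe sets was not counted for this or the other alternatives of the fold rule. Their counts cannot tell whether the members differ from other probe sets. The causes were not tested. With no detection calls, ratios of dim probe sets, as those of *Cdkn2a* and *Cdkn2b* at day 0, are the least certain.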

Other observations

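Some genes around the members, singled out after their values were seen, had their lowest values at 2 W. *Cdkn3*, which encodes a phosphatase that acts on Cdk2, measured 125 in intensity at day 0, 131 and 110 on the 1 W arrays, and 21.5 on the 2 W array (log2 ratio -1.97 at 2 W, adjusted p = 0.0602 from limma). *Mcm5*, a subunit of the replication helicase, had 83.6, 93.5, 78.7 and 6.25 in the same order (log2 ratio -3.17 at 2 W, adjusted p = 0.0577). Its 2 W intensity lay below the 20th percentile of that array (6.99), so the size of this ratio rests on a dim value. *Sesn2*, a stress-induced p53 target, had log2 ratios of -0.93 and -0.73 for the 1 W replicates and -1.55 for 2 W (adjusted p = 0.0646 at 2 W). *Smad3*, a transducer of TGFβ signals, had log2 ratios of -0.36 and -0.51 for the 1 W replicates and -1.27 for 2 W (adjusted p = 0.0589 at 2 W). None of these passed the test.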
